A study of Mus musculus with 4 samples.

Results

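The respiratory chain subunits examined here are the genes whose mouse symbols begin with Ndufa, Ndufb, Ndufc, Ndufs, Ndufv, Uqcr, Cox4, Cox5, Cox6, Cox7, Cox8, Atp5, mt-Nd, mt-Co, mt-Atp or mt-Cytb, together with Sdha, Sdhb, Sdhc and Sdhd. Of 55450 gene rows, 120 names matched, and 9 names ending in -ps and its numbered forms were dropped, which left 111 members. Nuclear chromosomes carry 98 of them and the mitochondrial genome carries 13. The nuclear members comprise 47 genes of complex I, 4 of complex II, 8 of complex III, 21 of complex IV and 18 of complex V. Because the choice was made by name, the complex I group also holds 8 assembly factors (Ndufaf genes), which are not subunits of the finished complex. Ndufa11b, Ndufb4c and Ndufs6b of complex I and Cox6c2 of complex IV are annotated as processed pseudogenes but were kept by the rule. Among these only Ndufb4c was tested. The mitochondrial members comprise 7 genes of complex I, 1 of complex III, 3 of complex IV and 2 of complex V.

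RNA had been sequenced from cells of the mesenteric lymph nodes of WT C57BL/6J mice, enriched for the integrin CD11c with magnetic beads. Nodes were pooled in pairs (2 per pool), and each pool supplied cells to a well with 10 µM of an agonist of Ffar2 and to a well with H2O as the control. Ffar2 is a receptor for short-chain fatty acids, and the labels do not give the agonist's chemical name. Both wells held RPMI medium with serum for 6 h, and the pools, numbered 2 and 3, gave 2 agonist libraries and 2 control libraries.

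The respiratory chain sits in the inner mitochondrial membrane, where complexes I and II feed electrons from NADH and succinate to ubiquinone, complex III passes them to cytochrome c and complex IV passes them to oxygen. Complexes I, III and IV pump protons, and complex V (ATP synthase) uses the gradient to make ATP. Apart from complex II, which is wholly nuclear, each complex is built from subunits of both genomes, so their supply depends on transcription in the nucleus and in the mitochondrion. Dendritic cells are known to shift between oxidative phosphorylation and glycolysis when they are activated.

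Gene-assigned reads numbered 49509736 and 59902172 in the agonist libraries of pools 2 and 3, against 43238375 and 52417584 in the control libraries. Reads aligned to more than 1 place made up 6.54% to 6.99% of each library and were not counted for any gene. The conventional dendritic cell list had 10 of 10 markers with reads. Its summed level was 1238 and 1032 CPM (read counts scaled to a common library size, the usual per-megaread unit) in the agonist wells of pools 2 and 3, against 732 and 994 CPM in the control wells. The difference in pool 2 lay mostly in Irf8 (506 CPM with agonist, 126 without) and Flt3 (275 and 147 CPM). In that pool 5 of the 10 markers were lower with agonist. The CD11c gene Itgax itself was at 178 and 95.5 CPM in agonist wells and 189 and 105 CPM in control wells. Other cells were present: the summed level was 959 to 1935 CPM for 10 of 10 B cell markers, 680 to 1341 CPM for 10 of 10 T cell markers, 497 to 1063 CPM for 5 of 5 plasmacytoid dendritic cell markers and 3071 to 5590 CPM for 8 of 8 monocyte and macrophage markers. Fewer cells of a type and less RNA per cell cannot be told apart in such bulk libraries. Xist, the transcript of the inactive X chromosome, was counted 21194 and 17776 times in the agonist and control libraries of pool 2 and 0 times in pool 3, while the Y-linked Ddx3y was counted 21461 and 18752 times in the libraries of pool 3 and 0 times in pool 2. Sex and pool therefore cannot be told apart.

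All but 5 members had at least 1 read. Cox7b2, Cox8b, Cox8c, Ndufa4l2 and a second identifier carrying the symbol Atp5o had 0 reads in every library. Of the 111 members, 102 passed the filter on low counts and were tested, 90 nuclear and 12 mitochondrial. The members with reads that did not pass were mt-Nd4l, Ndufa11b, Ndufs6b and Cox6c2.

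The mitochondrial messenger genes spanned a wide range of levels, and the lowest were mostly those that have a near-identical copy in the nuclear genome. To compare genes, levels are given as CPM per kilobase of merged exons, in which mt-Co1, the catalytic subunit of complex IV, stood at 3149 ± 374 (SD, n = 4 libraries). The cytochrome b gene mt-Cytb followed at 2181 ± 78.1, and mt-Nd1, a membrane subunit of complex I, at 1600 ± 114 CPM per kilobase. The other complex I genes mt-Nd5, mt-Nd2 and mt-Nd4 were at 551 ± 45.3, 483 ± 56.1 and 474 ± 52.6 CPM per kilobase. They kept this order in every library, with mt-Nd2 and mt-Nd4 close together. mt-Nd6, encoded on the opposite strand from the others, was at 133 ± 10.2 CPM per kilobase. The library kit does not mark strand, so its reads and those of RNA from the other strand cannot be told apart.

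The complex IV genes mt-Co2 and mt-Co3 were counted at only 5.37 ± 2.12 and 8.91 ± 2.97 CPM per kilobase, and the ATP synthase gene mt-Atp6 at 3.40 ± 1.05. mt-Nd3 was at 29.4 ± 2.40 CPM per kilobase, and mt-Nd4l had 3 and 1 reads in agonist and 3 and 1 reads in control libraries of pools 2 and 3. These 5 genes share 98.0% to 100% of their 50-base windows with transcripts of other genes, namely nuclear pseudogenes on chromosome 1. The aligned pseudogenes Gm28661 (for mt-Co2), Gm28437 (mt-Co3), Gm10925 (mt-Atp6) and Gm10222 (mt-Nd4l) held 0 mismatches to the mitochondrial gene, and Gm28438 held 1 mismatch to mt-Nd3. By contrast, mt-Nd1, mt-Nd6 and mt-Cytb shared 0% of their windows. mt-Co1 and mt-Nd4 shared 51.1% and 62.2% and still had at least 219577 and 28199 reads per library. Their copies cover part of each gene: Gm29216 held 6 mismatches over 492 aligned bases of mt-Co1, and Gm28439 held 0 over 876 of mt-Nd4. mt-Atp8 shared 0%, overlaps mt-Atp6 over 21.1% of its length, and had 33 and 12 reads in agonist and 8 and 13 reads in control libraries. It lies between mt-Co2 and mt-Atp6, whose copies are neighbours on chromosome 1. Only annotated transcripts were searched, so a copy of mt-Atp8 outside them would be missed. The counts of the 5 copied genes are therefore uncertain, and those of mt-Atp8 may be too.

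The sequences below show what a uniquely placed read needs, on GRCm38. The opening 60 bases of mt-Co2 (chrM:7013-7072, plus strand) and of its copy in Gm28661 (chr1:24615506-24615565, minus strand) are the same letter for letter. A 60-base stretch of mt-Nd2 (chrM:4667-4726, plus strand) and its copy in Gm13339 (chr2:22590249-22590308, minus strand) differ at the capitals, which are C759T, C780T and T781C with positions counted from the start of the mt-Nd2 transcript, the mitochondrial base given first. The opening of mt-Cytb (chrM:14145-14204, plus strand) is shown as a gene with no shared window.
mt-Co2: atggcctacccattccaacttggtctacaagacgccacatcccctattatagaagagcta
Gm28661: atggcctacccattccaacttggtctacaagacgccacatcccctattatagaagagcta
mt-Nd2: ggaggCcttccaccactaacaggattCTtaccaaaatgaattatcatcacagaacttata
Gm13339: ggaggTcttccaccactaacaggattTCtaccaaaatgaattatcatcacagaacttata
mt-Cytb: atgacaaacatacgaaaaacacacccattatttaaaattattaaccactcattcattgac

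The copies themselves drew few reads. Gm28661 had 263 and 174 reads in the agonist libraries of pools 2 and 3, against 123 and 157 in the control libraries, close to the 302 and 179 agonist and 138 and 134 control reads of mt-Co2. Gm28437 had 754 and 463 agonist reads and 332 and 370 control reads, beside 544 and 346 agonist and 243 and 302 control reads of mt-Co3. For mt-Nd2, whose copy carries 17 mismatches over 510 aligned bases, the gene had 30454 and 26230 agonist reads and 21623 and 24156 control reads, and the copy had 4 to 10.

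**Figure D1:**
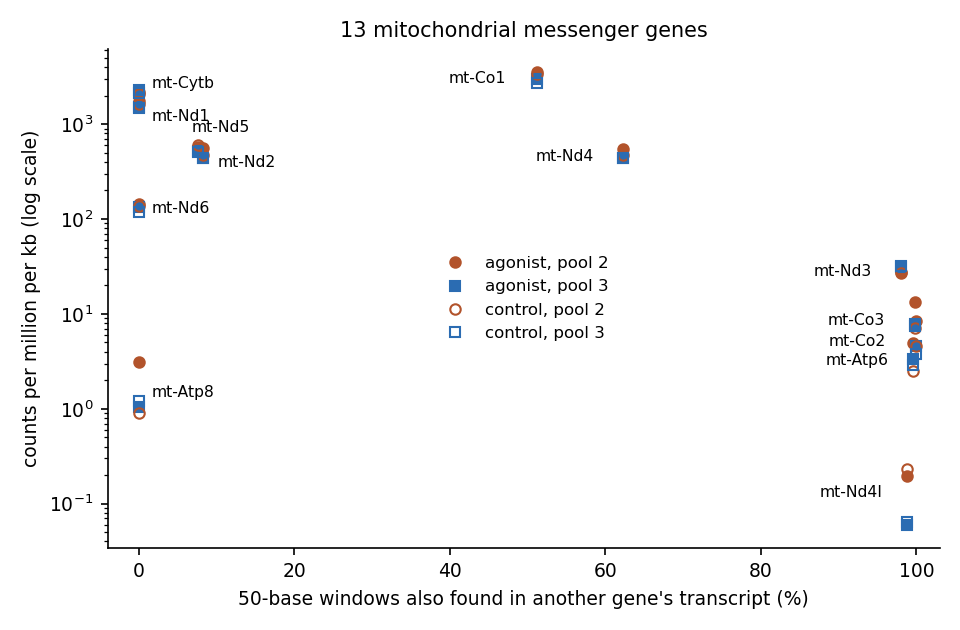
Level of the 13 mitochondrial messenger genes in each library (y axis, CPM per kilobase, log scale) against the share of their 50-base windows that also occur in another gene's transcript (x axis, percent). Filled symbols are agonist and open symbols control libraries, circles pool 2 and squares pool 3. mt-Nd3, mt-Nd4l, mt-Co2, mt-Co3 and mt-Atp6 lie at 98.0% or more, none with a mean above 29.4 CPM per kilobase, while mt-Atp8 is low at 0% shared windows. Only annotated transcripts were searched.

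Among nuclear members the highest level in each complex belonged to Atp5a1, the alpha subunit of ATP synthase (256 ± 22.3 CPM per kilobase), Ndufa1, an accessory subunit of complex I (177 ± 15.02), Cox6b1 of complex IV (174 ± 17.8), Sdha, the flavoprotein of complex II (163 ± 15.3), and Uqcrb of complex III (105 ± 3.63; SD, n = 4 libraries each). Cox6b1 lay above Sdha in every library, and Ndufa1 lay above both except in the control library of pool 2. Atp5a1 lay above these genes and Uqcrb below them in every library. Complex II showed an uneven set of levels, with Sdha at 163 and the membrane anchor Sdhd at 140 ± 12.7, the iron-sulfur subunit Sdhb at 77.1 ± 10.5 and the other anchor, Sdhc, at 13.1 ± 1.52 CPM per kilobase. Cox5a, an integral subunit of complex IV, was counted at only 1.47 ± 1.14 CPM per kilobase, against 43.1 ± 9.11 for its partner Cox5b. Merged exons cover every annotated transcript form, so a long rare form lowers a level per kilobase.

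Levels within the isoform families were uneven. Cox4i1, the widespread form of subunit 4, was at 120 ± 13.4 CPM per kilobase, against 0.549 ± 0.0523 for Cox4i2, known from lung, which had 22 and 25 reads in agonist and 21 and 20 reads in control libraries. Cox6b1 was at 174 ± 17.8 and Cox6b2, known from testis, at 1.06 ± 0.0411. Cox7a2 was at 61.9 ± 7.07, Cox7a2l, a factor of supercomplexes, at 45.5 ± 7.89, and Cox7a1, the heart and skeletal muscle form, at 0.582 ± 0.192 CPM per kilobase. Cox8a was at 115 ± 36.3, while the muscle form Cox8b and the testis form Cox8c had 0 reads. Ndufa4, now counted as a subunit of complex IV, was at 64.2 ± 6.71, and its hypoxia-induced relative Ndufa4l2 had 0 reads. Of the 3 genes for the proton-carrying subunit c of ATP synthase, Atp5g3 was at 84.4 ± 6.33, Atp5g1 at 13.1 ± 1.59 and Atp5g2 at 7.002 ± 1.80 CPM per kilobase. Atp5g2 shares 36.7% of its 50-base windows with other transcripts, so its level is uncertain.

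Cox6a2, which encodes the heart and skeletal muscle form of subunit 6a, separated by pool. It stood at 20.0 ± 12.8 CPM per kilobase beside 163 ± 45.1 for the widespread Cox6a1. It had 901 and 323 reads in the agonist libraries of pools 2 and 3, and 1046 and 379 reads in the control libraries. The libraries of pool 2 were higher than those of pool 3 in either condition.

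**Figure D2:**
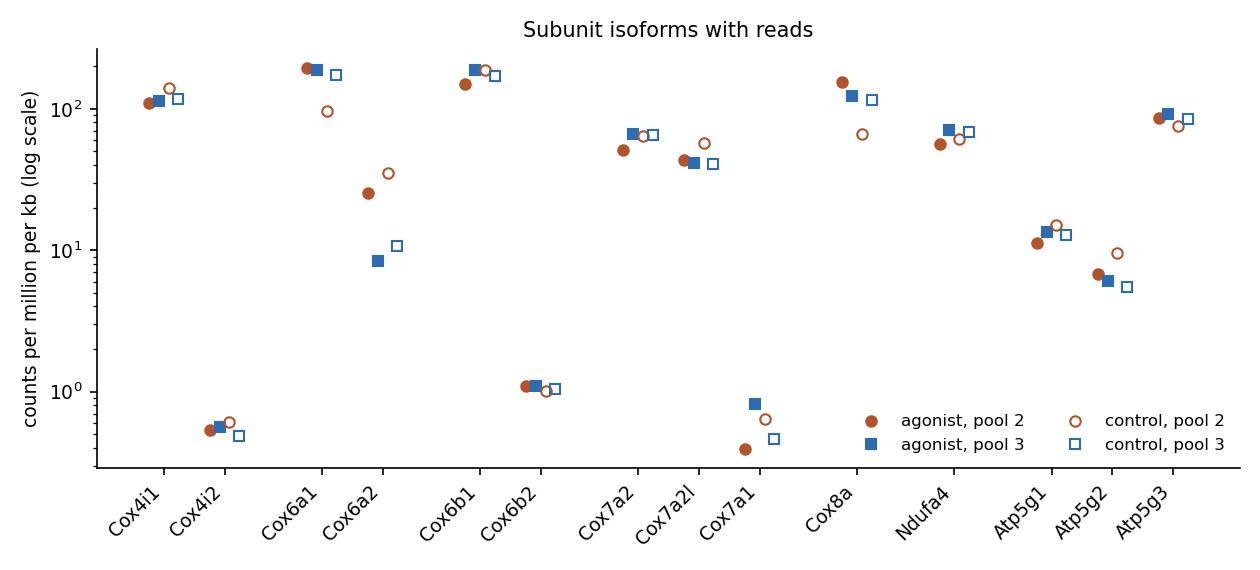
Level of subunit isoforms in each library (y axis, CPM per kilobase, log scale), grouped by family along the x axis. Filled symbols are agonist and open symbols control libraries, circles pool 2 and squares pool 3. Cox4i2, Cox6b2 and Cox7a1 lie lowest, with means of 0.549 to 1.06, and Cox6a2 separates by pool. Cox8b, Cox8c and Ndufa4l2 had 0 reads and are not drawn.

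The comparison of agonist with control asks whether stimulation of the receptor changed these transcripts within 6 h. The 13 mitochondrial messengers together took 1.28% and 1.02% of gene-assigned reads in the agonist libraries of pools 2 and 3, and 1.16% and 1.01% in the control libraries. For agonist pool 2 the exact 95% binomial interval ran from 1.27% to 1.28%, which covers counting error only. mt-Nd3, mt-Nd4l, mt-Co2, mt-Co3 and mt-Atp6, whose counts are uncertain, had at most 617 reads each per library. All 13 together had at least 499558, so the mitochondrial shares and sums rest almost wholly on the other messengers. The nuclear members together took 0.785% and 0.746% in agonist and 0.716% and 0.755% in control libraries. On the scale of normalised CPM the mitochondrial sum was 12146 and 10770 in agonist wells and 11474 and 10179 in control wells. The nuclear sum was 7471 and 7875 CPM in agonist wells and 7115 and 7578 CPM in control wells. The ratio of the mitochondrial to the nuclear sum was 1.63 and 1.37 in agonist wells and 1.61 and 1.34 in control wells. The log2 ratio of agonist to control was 0.02 in the mean of the pools (0.01 in pool 2 and 0.03 in pool 3), less than the gap between the pools, so the groups overlapped.

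The nuclear sum rested in part on Atp5b, the catalytic beta subunit of ATP synthase. Without it the sum was 6475 and 7339 CPM in agonist wells and 6889 and 7055 CPM in control wells, so that in pool 2 the agonist well lay below the control well. The mean log2 ratio of the nuclear sum over the pools was 0.06 with Atp5b and -0.02 without it.

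**Figure D3:**
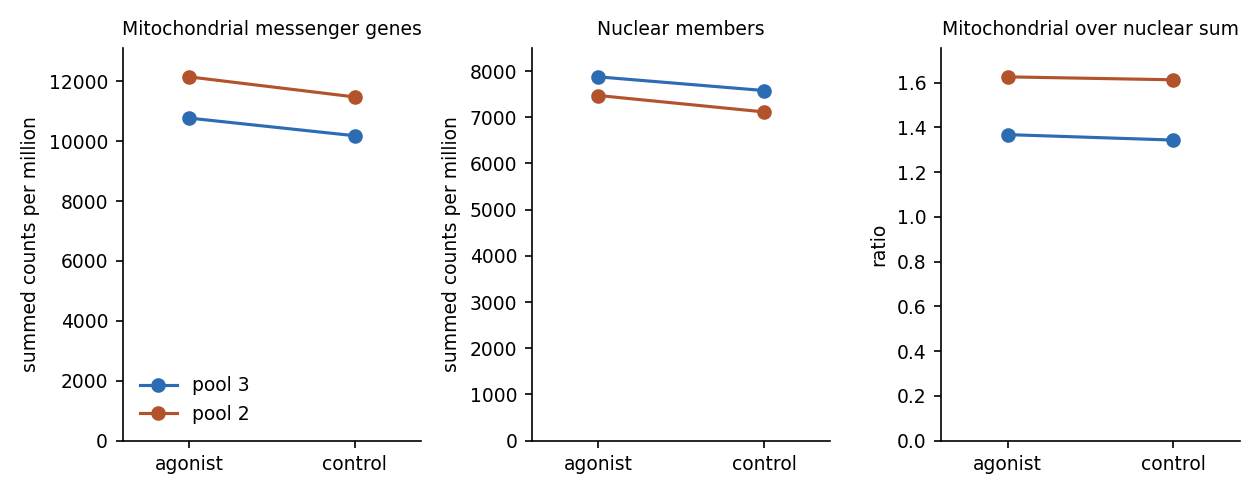
Summed level of the mitochondrial messenger genes (left) and the nuclear members (middle), in CPM, and the ratio of the sums (right), in the agonist and the control well of each pool, joined by lines. The y axes start at 0. The ratio was 1.63 and 1.61 in pool 2 and 1.37 and 1.34 in pool 3 (agonist and control wells). The mitochondrial sum includes mt-Nd3, mt-Nd4l, mt-Co2, mt-Co3 and mt-Atp6, whose counts are low and uncertain.

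No single member passed the test, which in simulated counts recovered only 2 of 67 genes changed 2-fold. With edgeR's quasi-likelihood test, 0 of 102 tested members and 0 of 18297 genes (0%) had an adjusted p under 0.05. The adjusted p was 0.9999 for every tested member (edgeR). At an unadjusted p under 0.05 there were 0 members, against 289 genes (1.58%) over all genes. DESeq2 and limma-voom called 0 members as well. They had 2 and 1 members at an unadjusted p under 0.05, given without the share over all genes and so not compared with a background. With a term for the pool, edgeR called 0 members and 1 gene (0.00547%), and 2 members had an unadjusted p under 0.05, against 645 genes (3.53%). These were Atp5b and Uqcrc1, each with an adjusted p of 0.9998 in that fit (edgeR). Over every setting run the adjusted p was 0.951 to 1 for Atp5b and 0.999 to 1 for Uqcrc1 (edgeR, DESeq2 and limma-voom).

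Nuclear and mitochondrial members leaned apart by a small amount. The median log2 fold change was -0.06 over 90 tested nuclear members and 0.12 over 12 tested mitochondrial members, beside -0.05 over all tested genes. Within pools, taken as the log2 ratio of agonist to control CPM with a prior count of 2, the nuclear median was -0.19 in pool 2 and 0.05 in pool 3. The mitochondrial median was 0.16 in pool 2 and 0.05 in pool 3, and the median of all genes -0.09 and -0.005. The gap between the genomes was thus present in pool 2 and absent to the second decimal in pool 3. The 12 include mt-Nd3, mt-Co2, mt-Co3 and mt-Atp6, whose counts are uncertain. Over the 8 tested genes that share at most 62.2% of their windows the mitochondrial median was 0.11, with 0.09 in pool 2 and 0.03 in pool 3. These still include mt-Nd4 and mt-Co1, which have partial copies, and mt-Atp8. Without agonist replicate 2 the nuclear median was 0.08 and the mitochondrial median 0.05, and without control replicate 3 the nuclear median was 0.02.

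Direction in each pool was counted as well. Of the tested mitochondrial genes, 8 of 12 were higher with agonist in both pools (21% of all genes) and 0 were lower in both (27.8%). The 8 include mt-Nd2, at 462 CPM in both wells of pool 3, and 3 genes with uncertain counts, mt-Co2, mt-Co3 and mt-Atp6. Of the tested nuclear members, 16 of 90 were higher in both pools and 25 were lower in both. The 25 include the pseudogene Ndufb4c, on at most 15 reads per library. Both agonist libraries lay above both control libraries for 3 mitochondrial genes (mt-Cytb, mt-Co3 and mt-Atp6) and 10 nuclear members, and below them for 0 mitochondrial genes and 15 nuclear members. The counts of mt-Co3 and mt-Atp6 are uncertain for their near-identical copies. Among the 8 tested mitochondrial genes with at most 62.2% of windows shared, mt-Cytb was the 1 that separated. Over all genes these shares were 11.4% above and 13.5% below, so the nuclear counts lay near the background. Genes of the mitochondrial genome come from shared long transcripts and are not independent of each other.

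The deeply counted mitochondrial genes differed little between agonist and control wells. mt-Cytb had 2491 and 2617 CPM in the agonist wells of pools 2 and 3, against 2403 and 2468 CPM in the control wells. The groups did not overlap, but the log2 fold change was 0.07 with an SE of 0.22 (edgeR adjusted p = 0.9999). mt-Co1, with 51.1% of its windows shared, had 5494 and 4591 CPM in agonist wells and 5172 and 4204 CPM in control wells, and mt-Nd1 had 1672 and 1461 CPM in agonist wells and 1561 and 1429 CPM in control wells. Both genes were higher with agonist in either pool, but the pools lay further apart than the conditions, so the groups overlapped. mt-Nd5 was the only tested mitochondrial gene with a negative fold change (-0.03), at 1042 and 944 CPM in agonist wells and 1103 and 929 CPM in control wells. The largest ratios among mitochondrial genes were those of genes with few reads, of which mt-Co2, mt-Co3 and mt-Atp6 have uncertain counts. mt-Atp8 shares no window with an annotated transcript, but it lies between mt-Co2 and mt-Atp6 and a copy elsewhere was not searched for. mt-Co2, mt-Co3, mt-Atp6 and mt-Atp8 had log2 ratios of 0.87, 0.90, 0.95 and 1.60 in pool 2, against 0.29, 0.08, 0.19 and -0.20 in pool 3.

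The 2 ribosomal RNA genes of the mitochondrial genome did not share the direction of the messengers. mt-Rnr2 had 7838 and 4297 CPM in the agonist wells of pools 2 and 3, against 8942 and 6637 CPM in the control wells (log2 fold change -0.36, SE 0.35, edgeR adjusted p = 0.9999). mt-Rnr1 had 1254 and 556 CPM in agonist wells and 1422 and 936 CPM in control wells (log2 fold change -0.38, SE 0.44). Both were lower with agonist in either pool, but the groups overlapped.

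Complex II, whose 4 subunits are all nuclear, had a small negative fold change in each member, and none passed the test. The median log2 fold change over all tested genes was also negative (-0.05). Sdha had 581 and 714 CPM in the agonist wells of pools 2 and 3 and 712 and 689 CPM in the control wells, with a log2 fold change of -0.11 (SE 0.25). Sdhb had 138 and 185 CPM in agonist wells and 178 and 190 CPM in control wells (-0.19, SE 0.28). Sdhd was at 150 and 177 CPM in agonist and 183 and 181 CPM in control wells (-0.15, SE 0.26), and Sdhc at 37.2 and 41.5 CPM in agonist and 49.2 and 42.8 CPM in control wells (-0.22, SE 0.28). The groups did not overlap for Sdhd and Sdhc, lower with agonist as for 13.5% of all genes, and overlapped for Sdha and Sdhb. Each difference was smaller than its standard error, and in pool 3 alone the log2 ratios were between -0.04 and 0.05. The summed level of complex II was 906 and 1118 CPM in agonist wells and 1122 and 1102 CPM in control wells.

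The other complexes had nuclear medians close to 0. The median log2 fold change was -0.10 for 45 tested genes of complex I, -0.07 for 8 of complex III, -0.02 for 16 of complex IV and -0.02 for 17 of complex V. In pool 2 these medians were -0.18, -0.13, -0.19 and -0.17, and in pool 3 they were 0.03, -0.01, 0.07 and 0.11. The assembly factors of complex I, 8 of 8 tested, had a median log2 fold change of 0.03. Ndufb1-ps, one of the dropped names, had 2089 and 2732 reads in agonist and 1388 and 2580 reads in control libraries. The other dropped names had at most 24 reads in any library.

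**Figure D4:**
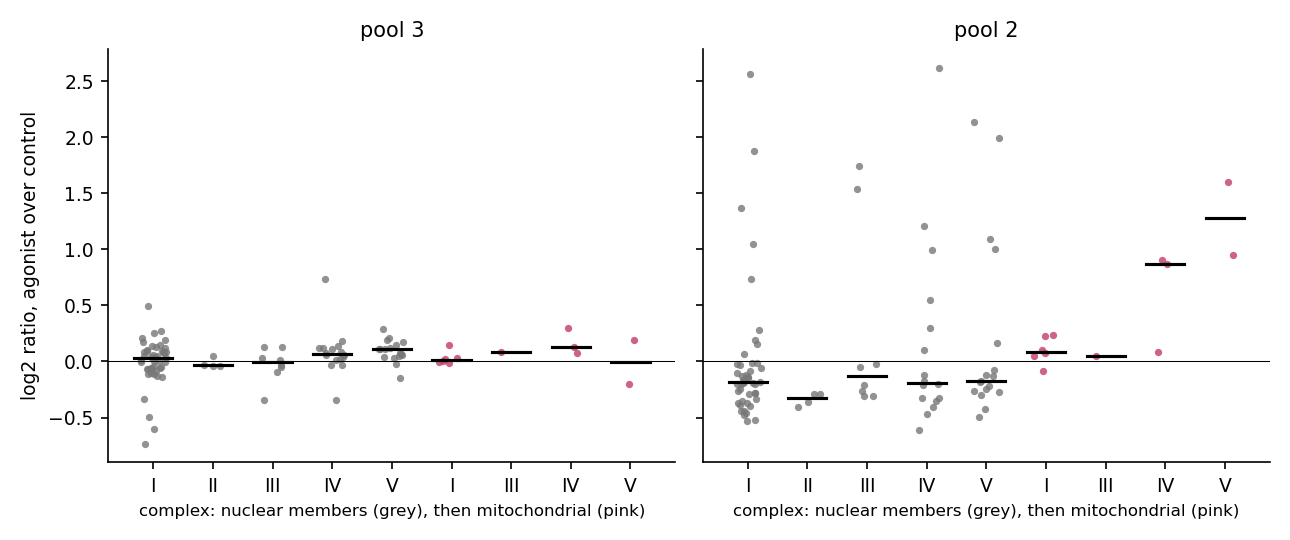
Log2 ratio of agonist to control (y axis) for each tested member, by complex along the x axis, with nuclear members in grey and mitochondrial members in pink, in pool 3 (left) and pool 2 (right). Black bars are medians. In pool 3 the nuclear medians lie between -0.03 and 0.11, and in pool 2 a minority of members of complexes I, III, IV and V lies above 1 while the medians lie below 0.

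A minority of members had a large ratio in pool 2 and a ratio near 0 in pool 3. In pool 2 the log2 ratio exceeded 1 for 13 of 102 tested members (13.8% of all genes did), and in pool 3 for 0 (5.67% of all genes). It exceeded 0.5 in pool 2 for 19 of the 102, 15 nuclear and 4 mitochondrial (24.3% of all genes). For 14 of the 102 the agonist well of pool 2 was the highest and the control well of pool 2 the lowest of the 4 libraries, against 10.9% of all genes. The shares above 1 and of this order therefore lay near the background and that above 0.5 below it, and the pattern is not particular to the respiratory chain.

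Atp5b showed it at the greatest depth. It had 51767 and 30351 reads in the agonist libraries of pools 2 and 3, and 9882 and 27329 reads in the control libraries, or 996 and 535 CPM in agonist wells against 227 and 523 CPM in control wells. The pool 3 wells were alike and lay between the pool 2 wells. The log2 ratio was 2.13 in pool 2 and 0.03 in pool 3, and the log2 fold change over both was 1.03 (SE 0.49, edgeR adjusted p = 0.9999). The alpha subunit Atp5a1, which assembles with the beta subunit in equal number, had 707 and 868 CPM in agonist wells and 836 and 799 CPM in control wells, with log2 ratios of -0.24 and 0.12. The delta subunit Atp5d followed the beta subunit, with 86.6 and 45.9 CPM in agonist wells and 21.8 and 46.7 CPM in control wells.

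In complex III the core protein gene Uqcrc1 had 15672 and 15665 reads in the agonist libraries of pools 2 and 3, and 4507 and 13166 reads in the control libraries. Here the control well of pool 2 was low and the other 3 libraries were alike (301 and 276 CPM with agonist, 104 and 252 CPM without), and the log2 fold change was 0.70 (SE 0.44). The Rieske iron-sulfur protein gene Uqcrfs1 had 17.8 and 7.33 CPM in agonist wells and 5.28 and 9.34 CPM in control wells, with log2 ratios of 1.74 in pool 2 and -0.35 in pool 3. The second core protein gene, Uqcrc2, had log2 ratios of -0.31 and -0.03. In complex IV, Cox5a had 340 and 135 reads in agonist and 45 and 127 reads in control libraries, with log2 ratios of 2.62 and -0.03. Cox8a had 95.1 and 76.8 CPM in agonist wells and 41.1 and 71.2 CPM in control wells (1.21 and 0.11), and Cox6a1 136 and 133 CPM in agonist wells and 68.0 and 122 CPM in control wells (0.997 and 0.12). In complex I the assembly factor Ndufaf8 had log2 ratios of 1.88 in pool 2 and 0.15 in pool 3, and the subunit Ndufa6 ratios of 1.36 and 0.04. Within each of these complexes such genes stood beside others whose pool 2 ratio was slightly negative.

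**Figure D5:**
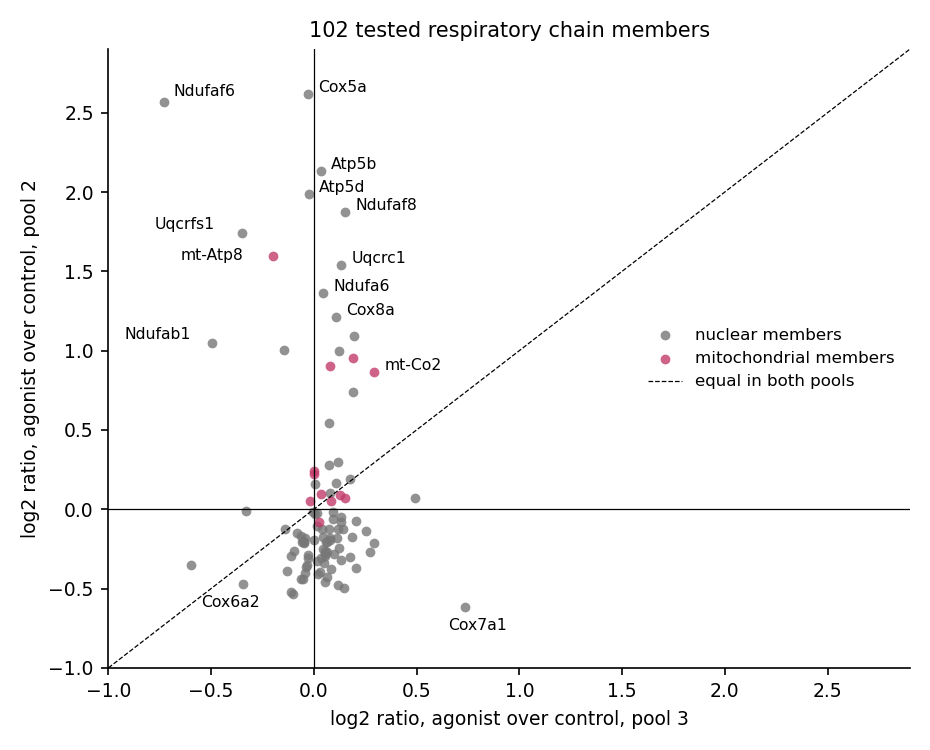
Log2 ratio of agonist to control in pool 2 (y axis) against that in pool 3 (x axis) for the 102 tested members, with nuclear members in grey and mitochondrial members in pink, and a dashed line where the pools are equal. In pool 2, 13 members exceed 1, led by Cox5a at 2.62, whereas no member exceeds 1 in pool 3.

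Some features of these members beyond the ratio were described, without values over all genes. The 15 nuclear members above 0.5 in pool 2 had a median GC content of 69.0% over the opening 200 bases of the transcript (range 48.5% to 73.5%), and the other 75 tested nuclear members one of 59.5% (range 39.5% to 79.0%). The GC content of the whole transcript was 51.62% against 50.02% in the median. The share of windows found in other transcripts was 0% in the median for the 15, with a range of 0% to 11.9%. Median levels were 15.2 CPM per kilobase for the 15 and 32.5 for the 75. The classes were set by the ratio itself, so no test was made, and the part of GC content in the ratio was not tested. Irf8, a transcription factor gene of the conventional dendritic cell list, had the same order, with 506 and 264 CPM in agonist wells and 126 and 280 CPM in control wells, while the median pool 2 ratio over the 10 genes of that list was 0.08. The part of cell composition was not tested.

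The promoters of nuclear respiratory genes are known for sites of the factors NRF1 and GABP. RefSeq windows (GRCm38.p6) of 250 bases before to 50 after the start were found for 77 of 98 nuclear member identifiers. These stand for 76 RefSeq genes, with 81 windows in all. On either strand, the NRF1 letters, GCGC then any base then TGCGC, occurred in 24.7% of member windows against 4.60% of all 32851 windows. The stricter form with A as the free base, contained in the first, occurred in 8.64% against 0.971%, and the GABP letters CCGGAAG in 22.2% against 8.86%. The YY1 letters ATGGCGGC occurred in 9.88% against 2.24%, and the ERR letters CAAGGTCA in 4.94% against 1.56%. A match describes the letters and is no evidence of binding. Printed below are the windows of Uqcrc1 (chr9:108936398-108936697, plus strand), Sdha (chr13:74350191-74350490, minus strand) and Atp5b (chr10:128083057-128083356, plus strand). They are examples of high (Uqcrc1, Atp5b) and negative (Sdha) pool 2 ratios, and the Atp5b window holds none of the 5 motifs. Capitals mark the NRF1 letters with any free base on either strand.
Uqcrc1: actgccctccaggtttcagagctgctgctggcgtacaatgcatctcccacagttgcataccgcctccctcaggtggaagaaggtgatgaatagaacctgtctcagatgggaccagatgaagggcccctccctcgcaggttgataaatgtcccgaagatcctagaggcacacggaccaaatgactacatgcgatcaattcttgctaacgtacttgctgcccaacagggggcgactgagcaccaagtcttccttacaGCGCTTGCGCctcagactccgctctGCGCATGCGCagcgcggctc
Sdha: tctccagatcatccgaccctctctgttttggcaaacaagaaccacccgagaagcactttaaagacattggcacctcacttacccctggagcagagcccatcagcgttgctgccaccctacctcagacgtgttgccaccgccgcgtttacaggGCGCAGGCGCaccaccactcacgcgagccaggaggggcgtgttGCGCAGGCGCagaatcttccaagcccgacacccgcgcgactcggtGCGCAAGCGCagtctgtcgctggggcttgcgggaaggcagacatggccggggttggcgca
Atp5b: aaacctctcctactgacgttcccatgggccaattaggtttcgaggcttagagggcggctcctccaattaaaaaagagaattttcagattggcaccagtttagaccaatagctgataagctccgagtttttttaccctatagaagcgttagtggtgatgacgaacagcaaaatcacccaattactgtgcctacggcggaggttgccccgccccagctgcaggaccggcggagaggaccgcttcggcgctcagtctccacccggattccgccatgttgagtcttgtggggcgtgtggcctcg

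Uqcrc1 carries 2 matches to the NRF1 letters in this window, including the stricter form. Sdha carries 3 matches, none of the stricter form. Their pool 2 ratios were 1.54 and -0.29, and the part of these letters in the ratio was not tested. The regulators themselves did not pass the test. Nrf1, the factor named above, had 3951 and 4367 reads in agonist and 3204 and 3966 reads in control libraries (log2 fold change 0.03, SE 0.26), and Tfam, the factor that starts mitochondrial transcription, 1515 and 1740 reads in agonist and 1213 and 1646 in control libraries (0.01, SE 0.28). Gabpa had log2 ratios of 0.46 in pool 2 and -0.28 in pool 3, and the coactivator gene Ppargc1a ratios of -0.09 and 1.11 on 806 and 419 agonist and 720 and 178 control reads. The coactivator gene Ppargc1b was low, with 46 and 35 agonist and 74 and 38 control reads.

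Lists of genes around the chain gave 0 calls each with edgeR. The median log2 fold change was -0.08 over 35 tested assembly factors and cofactors, 0.05 over 22 genes of mitochondrial transcription and biogenesis, -0.06 over 13 genes of coenzyme Q synthesis and -0.07 over 17 genes of the tricarboxylic acid cycle. It was 0.06 over 4 genes of cytochrome c and the ATP synthase inhibitor, and -0.02 over 76 genes of the mitochondrial ribosome. At an unadjusted p under 0.05 these lists held 1 gene, Supv3l1, a helicase of mitochondrial RNA, against 1.58% of all genes (edgeR). Supv3l1 had 568 and 485 reads in agonist and 191 and 277 reads in control libraries (log2 fold change 1.01, SE 0.39, edgeR adjusted p = 0.9999). The order seen for Atp5b, agonist well of pool 2 highest and control well of pool 2 lowest, also occurred here. In the order of the lists above it held for 6 of 35, 5 of 22, 2 of 13, 1 of 17, 1 of 4 and 13 of 76 genes. Over all genes the share was 10.9%. Among them, the cytochrome c1 gene Cyc1 had 22.8 and 9.33 CPM in agonist wells and 6.13 and 9.23 CPM in control wells. The complex IV assembly gene Coa6 had 274 and 218 agonist and 57 and 157 control reads. Cytochrome c itself (Cycs) had log2 ratios of -0.18 and -0.04.

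The pools differed from each other in some members more than the conditions did. In the comparison of pool 3 with pool 2, with group as a covariate, edgeR called 0 of 102 members and 72 of 18297 genes (0.394%). Only Cox6a2 had an unadjusted p under 0.05 among the members, against 2536 genes (13.9%). Each arm is 1 pool with 2 wells, so p covers the spread between wells and not that between mice. Cox6a2 had 5.70 and 7.26 CPM in the agonist and control wells of pool 3, against 17.33 and 24.03 CPM in those of pool 2, with a log2 difference of -1.67 (SE 0.32, edgeR adjusted p = 0.0733). It passed the threshold with DESeq2 (adjusted p = 0.000889) and limma-voom (adjusted p = 0.0367), and over all settings the adjusted p ran from 0.000889 to 0.655. Several marker lists also had lower sums in pool 3, each with reads for every gene. The sum of 5 plasmacytoid dendritic cell markers was 497 and 705 CPM in the agonist and control wells of pool 3, against 812 and 1063 CPM in those of pool 2, although 1 of them, Ccr9, was at 188 CPM in the control well of pool 3 and 122 CPM in that of pool 2. The sum of 10 T cell markers was 680 and 791 CPM in pool 3, against 1070 and 1341 CPM in pool 2. The sum of 10 B cell markers was 959 and 1184 CPM in pool 3, against 1757 and 1935 CPM in pool 2, and that of 8 monocyte and macrophage markers 3429 and 3071 CPM, against 5022 and 5590 CPM. The last sum was mostly Lyz2, at 2860 and 2540 CPM in pool 3 against 4275 and 4666 CPM in pool 2. The sums of conventional dendritic cell, plasma cell and neutrophil markers did not fall in both conditions. For conventional dendritic cells the sum was 1032 and 994 CPM in pool 3, against 1238 and 732 CPM in pool 2. The part of cell types in the Cox6a2 difference was not tested.

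The mitochondrial genes tended to be lower in pool 3 and the nuclear members higher. The median log2 difference was -0.20 over 12 tested mitochondrial genes and 0.12 over 90 nuclear members, beside -0.01 over all genes. Both wells of pool 3 lay below both wells of pool 2 for 7 mitochondrial genes (25.2% of all genes) and above them for 1 (24%), and for nuclear members these counts were 8 and 26. The 7 include mt-Co2 and the 1 is mt-Nd3, both with uncertain counts. mt-Co1, for example, had 4591 and 4204 CPM in the agonist and control wells of pool 3, against 5494 and 5172 CPM in those of pool 2. Its log2 difference was -0.28 (edgeR adjusted p = 0.672). Atp5s, a coupling factor gene of ATP synthase, had 751 and 604 reads in the agonist and control libraries of pool 3 and 529 and 207 reads in those of pool 2. Its log2 difference was 0.83 (edgeR adjusted p = 0.364), and it was 1.403 without agonist replicate 2 and 0.29 without control replicate 2.

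Leaving out a pool 2 library changed the calls of this comparison. Pool 2 is then 1 well of 1 condition, assumed to vary like the 2 wells of pool 3, from which the spread is estimated. Without agonist replicate 2, with pool as the only term, 9 members were called: Atp5b, Atp5d, Atp5s, Cox5b, Cox6a1, Cox6a2, Cox8a, Ndufa6 and Uqcrc1. In the same fit 7.98% of all genes were called. Without control replicate 2, 3 members were called, Atp5b, Atp5d and Cox6a2, against 4.25% of all genes, so both counts lay near the background. Atp5b then had a log2 difference of -0.91, against 1.24 without agonist replicate 2. Without agonist replicate 3, 0 members were called against 0.0504% of all genes, and without control replicate 3, 0 members against 0.00508% (edgeR, 1 member at an unadjusted p under 0.05 each).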

How the data were processed

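Per the labels' protocols, RNA of cultured CD11c+ cells was made into libraries with the SMART-seq v4 kit. The authors deposited whole-number read counts per gene, not normalized, and the tools STAR 2.7 and HTSeq 0.11.1 and the build GRCm38 (mm10) are listed in the submitters' processing notes. All 55450 identifiers matched GENCODE M21, which supplied coordinates, exon lengths and transcripts. Members, lists and motifs were chosen with earlier results of these data known.

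edgeR 4.0.16 (R 4.3.3) tested the 18297 genes that passed its expression filter (minimum count 10), with TMM scaling, the two-sided quasi-likelihood test and Benjamini-Hochberg adjustment (threshold 0.05). Group was the only term. DESeq2 1.42.0, limma 3.58.1 (voom) and the pool as a block were alternatives, and the steps were tested on simulated counts. The SE was derived from the fold change and the F statistic. CPM is scaled with TMM factors. Lines that name no gene, 15.96% to 19.99% of reads outside genes and 5.77% to 6.50% overlapping several, were left out. Nothing says that wells came from separate cultures beyond the pools, so p-values measure the spread between these wells.

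Per the protocol the cells of each pool were divided between the wells, so same-numbered libraries form pairs. The correlation of the deviations of same-numbered libraries from their group means was 0.288 over 18297 genes.

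The text names every mitochondrial messenger gene. It also names the member of each complex with the highest level, the 2 with the smallest p in each comparison, Sdha to Sdhd, the isoform families, any called member, and set genes of the lists. Uqcrc2, Irf8, Flt3, Itgax, Ccr9, Lyz2, Supv3l1, Ndufb1-ps, the members annotated as pseudogenes and the pseudogene copies were named after their values were seen. Shared windows are runs of 50 bases found in annotated transcripts of other genes, so copies outside these were not searched. Figures used matplotlib 3.10.9.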

Additional observations from a re-analysis of the deposited data

Results flagged for a closer look

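The pools went in opposite directions for the nuclear members as a group, with a median log2 ratio of agonist to control of -0.187 in pool 2 and 0.0512 in pool 3. Among named members with a ratio beyond 0.1 in either direction in both pools, 7 had opposite signs, and the difference between the pools was not tested for any of these results. Uqcrfs1 had log2 ratios of 1.74 in pool 2 and -0.35 in pool 3, and mt-Atp8, on at most 33 reads per library, 1.60 and -0.20. The other 5 were lower with agonist in pool 2 and higher in pool 3. Cox6b1 had ratios of -0.32 and 0.13, Atp5a1 -0.24 and 0.12, and Atp5g2 -0.49 and 0.14 (pools 2 and 3 in this order). Cox7a1 had -0.61 and 0.74 and Cox4i2 -0.17 and 0.19, both on at most 25 reads per library.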

How the results depend on the processing

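Genes with near-identical copies have uncertain counts at any depth. Members called in the agonist comparison stayed at 0 in every alternative run. Genes called numbered 0 with edgeR, 9 without a filter on low counts, 7 with DESeq2 and 0 to 2 without 1 library (1 without control replicate 2 and 2 without control replicate 3). With the pool as a replicate block, the pairing of the wells, they numbered 1 with edgeR and 6 with DESeq2, and the block changed no call of a member. Leaving out 1 library gave nuclear medians of -0.186 to 0.082, mitochondrial medians of 0.045 to 0.247 and a difference between them of -0.037 to 0.433, against -0.061, 0.115 and 0.176 with all libraries. Over the 8 tested mitochondrial genes with at most 62.2% of windows shared, an alternative chosen after seeing the data, the mitochondrial median was 0.108 and the difference 0.168. Without agonist replicate 2 the nuclear median and the difference changed sign, and without control replicate 3 the nuclear median did. The mean difference in mitochondrial share, 0.063 percentage points, was 0.218 over levels per kilobase. The mean log2 ratio of the nuclear sum, 0.063, was 0.085 as a share of all reads, 0.024 per kilobase and -0.016 without Atp5b, an alternative chosen after seeing the data. The mean log2 ratio of the mitochondrial to nuclear ratio, 0.019, was 0.058 per kilobase and 0.098 without Atp5b.

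Of 40 named members in the agonist comparison, 23 kept their direction in every alternative. Without leaving out a library, only Uqcrb and Cox4i2 changed sign, both near 0: Uqcrb to 0.026 with DESeq2 or its size factors and 0.025 with DESeq2 and the block, Cox4i2 to 0.029 with DESeq2 or its size factors, 0.001 without a filter, 0.020 with limma-voom, and 0.007 and 0.036 with the block in edgeR and DESeq2. Leaving out 1 library gave log2 fold changes that crossed 0 for 17 members: mt-Nd2 (-0.018 to 0.283), mt-Nd3 (-0.098 to 0.211), mt-Nd4 (-0.018 to 0.27), mt-Nd5 (-0.075 to 0.095), Ndufa1 (-0.051 to 0.287), Sdha (-0.275 to 0.063), Sdhb (-0.416 to 0.044), Uqcrb (-0.061 to 0.103), Cox6b1 (-0.262 to 0.099), Cox6a2 (-1.422 to 0.663), Atp5a1 (-0.216 to 0.122), Cox4i2 (-0.085 to 0.172), Cox7a1 (-0.486 to 0.603), Cox7a2 (-0.345 to 0.063), Cox7a2l (-0.365 to 0.056), Ndufa4 (-0.216 to 0.154) and Atp5g2 (-0.494 to 0.224).

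In the comparison of pool 3 with pool 2, genes called numbered 72 with edgeR, 5 with library totals only, 600 without a filter, 238 with a stricter one (10 CPM in 2 libraries), 706 with DESeq2, 275 with limma-voom, 5 with pool as the only term and 1 to 1575 without 1 library (10 without agonist replicate 3, 1575 without agonist replicate 2, 841 without control replicate 2, 1 without control replicate 3). Members called numbered 1, Cox6a2, without a filter, with the stricter filter, with DESeq2 and with limma-voom, and 0 to 9 without 1 library. The nuclear median was 0.057 to 0.169 and the mitochondrial median -0.319 to -0.084 without 1 library, and the mitochondrial median -0.287 with library totals only. Atp5b changed sign with pool as the only term (-0.208), as did Atp5d (-0.229, and -0.030 with limma-voom). Without 1 library the log2 difference crossed 0 for Ndufa6 (-0.423 to 0.958), Sdha (-0.002 to 0.277), Uqcrc1 (-0.185 to 1.371), Cox8a (-0.357 to 0.868), Atp5b (-0.907 to 1.24), Atp5d (-0.899 to 1.104) and Cox6a1 (-0.086 to 0.925). The cause of these changes was not tested.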
